A study of Mus musculus with 16 samples.

Results

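The 10 genes described here encode liver enzymes that handle the sulfur of methionine and cysteine and carry it into taurine: Mat1a, Gnmt, Ahcy, Bhmt, Bhmt2, Cbs, Cth, Cdo1, Csad and Suox. They were taken by gene symbol from a table of 53372 genes, 1 row each, and all 10 passed the filter on low counts with which 17810 genes were tested. The livers came from FVB/NCrl mice, a strain with no engineered allele named in the labels. Mice were left untreated (CTRL) or were given diphenyl phosphate (DPhP), a known breakdown product of aryl phosphate flame retardants, at 0.1 mg/L (C1), 1 mg/L (C2) or 10 mg/L (C3). The labels used here state no age, sex, route or length of exposure. The livers of a group had been combined before RNA was taken, so that the 4 libraries of a group are repeat measurements of 1 pool. Tests therefore measure technical spread, n counts libraries and not animals, and pool and concentration cannot be told apart. The genes were chosen by results of these data that were already known, among them the lower Csad level in C1, and by their place in the same pathway; which other values played a part is not recorded. The members' differences from CTRL, and those between C1 and the other pools, are therefore given as a description with no p-value, and where a member is said to be called, the call only describes its values.

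In the methionine cycle, methionine is activated to S-adenosylmethionine, spent on methyl transfer to give S-adenosylhomocysteine, split to homocysteine and methylated back to methionine. Homocysteine that leaves the cycle is joined to serine and cleaved to cysteine in the transsulfuration pathway, which is most active in the liver. Cysteine dioxygenase oxidizes surplus cysteine to cysteine sulfinate, which is either decarboxylated to hypotaurine and then taurine, used in mouse liver to conjugate bile acids, or broken down to sulfite, which is oxidized to sulfate.

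Libraries held between 14434761 (C1-3) and 45109243 (C2-1) counts. Values per gene are TMM-scaled CPM, which are counts relative to a common library size, given as mean ± SD over 4 libraries, and log2 fold changes are from edgeR ± SE. A gene was called when its Benjamini-Hochberg adjusted p over the 17810 genes, from edgeR's quasi-likelihood test, was under 0.05. Of 10 hepatocyte markers fixed as a list, 9 were tested and none was at 0; their summed level ranged from 65618 to 79318 CPM in CTRL, 62325 to 69609 CPM in C1, 29643 to 71508 CPM in C2 and 35632 to 61446 CPM in C3. Nuclear-retained RNA set C2-3, C2-4 and C3-4 apart: averaged on the log2 CPM scale, Kcnq1ot1, Malat1, Neat1 and Xist stood at 10.15, 10.07 and 9.97 in these libraries, with no other above 9.39. The members' differences from CTRL that move with those 3 libraries are given with and without them. In the remaining libraries this index was 8.44 to 9.01 in CTRL, 9.02 to 9.39 in C1, 8.88 and 9.03 in C2, and 9.10 to 9.23 in C3. All C1 libraries thus lay above all CTRL libraries, and the part of this difference in the members' values was not tested. In bulk RNA, fewer cells that express a gene and less of its RNA per cell cannot be told apart.

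Csad, the cysteine sulfinic acid decarboxylase that commits cysteine sulfinate to taurine, was the member farthest from CTRL in C1 and was below CTRL in each of the 12 treated libraries. Its level was 75.2, 79.8, 74.7 and 77.6 CPM in the CTRL libraries. It was 25.2, 25.8, 27.5 and 23.0 CPM in C1. It was 45.7, 44.8, 38.4 and 40.7 CPM in C2, and 49.9, 49.3, 52.9 and 39.8 CPM in C3. The lowest level was thus in the pool given the least DPhP: no C1 library overlapped any other pool, and C2 and C3 overlapped each other. The log2 fold change against CTRL was -1.60 ± 0.10 in C1, -0.86 ± 0.10 in C2 and -0.68 ± 0.10 in C3. The 3 comparisons share the same 4 CTRL libraries. Without the 3 libraries rich in nuclear RNA the values were -1.61, -0.75 and -0.60.

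Between treated pools, the log2 fold change of Csad was 0.74 ± 0.10 in C2 against C1 and 0.92 ± 0.10 in C3 against C1, both of which use the C1 libraries by which the gene was chosen. C3 and C2, which share no library with the comparison that drew attention to the gene, differed by 0.18 ± 0.10, which did not pass the test (edgeR adjusted p = 0.517). This p-value too only describes the values, since a part of C2 and C3 values in the choice of the genes is not recorded. Its estimate of spread also uses the C1 and CTRL libraries.

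Csad lies on the minus strand of chromosome 15 (102176999 to 102204724 in GENCODE M21, GRCm38), and RefSeq gives it a pair of starts. Gnmt, on the minus strand of chromosome 17, is the member whose C1 level lay on the other side of CTRL by the most. The bases just upstream of these starts are printed for the members with the lowest and the highest C1 level relative to CTRL. They are RefSeq sequences on GRCm38.p6, written 5′ to 3′ along the gene and trimmed to the longest run without an annotated exon. Entries for 7 of the 10 members were matched. Capitals mark matches to AGGTCA (a nuclear receptor half-site), TGTTCT (a glucocorticoid receptor half-site), TATAAA (the TATA box), CCAAT (the CCAAT box), GGGCGG (the GC box) or CACGTG (an E-box), on either strand, and no 2 of the marked matches overlap. The first run lies at chr15:102205087-102205228, the second at chr15:102189059-102189293 and the third at chr17:46729169-46729415.
Csad, upstream start: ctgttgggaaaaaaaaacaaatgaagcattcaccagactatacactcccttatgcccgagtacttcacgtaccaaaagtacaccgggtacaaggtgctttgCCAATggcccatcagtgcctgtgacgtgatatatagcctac
Csad, internal start: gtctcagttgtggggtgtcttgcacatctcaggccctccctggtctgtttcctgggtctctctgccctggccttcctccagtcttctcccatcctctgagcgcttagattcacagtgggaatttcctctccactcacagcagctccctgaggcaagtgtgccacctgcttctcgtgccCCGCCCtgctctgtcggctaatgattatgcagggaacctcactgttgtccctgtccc
Gnmt: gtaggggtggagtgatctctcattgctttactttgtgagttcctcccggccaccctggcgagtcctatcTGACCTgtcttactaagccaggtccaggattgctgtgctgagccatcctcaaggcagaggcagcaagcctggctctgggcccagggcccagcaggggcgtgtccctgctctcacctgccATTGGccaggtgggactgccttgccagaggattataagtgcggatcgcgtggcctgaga

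The upstream Csad run held 1 match, CCAAT at 75 bases before the RefSeq start, and lies between exons of Zfp740, a gene read from the opposite strand. The run at the internal start held CCGCCC, the complement of the GC box, at 72 bases before the start. The Gnmt run held TGACCT, the complement of the nuclear receptor half-site, at 181 bases and ATTGG, the complement of CCAAT, at 62 bases before the start. Among 32851 upstream windows of 250 bases over all genes, 33.8% held CCAAT, 32.7% the GC box and 14.02% the nuclear receptor half-site. TGTTCT was in 16.1% of the windows, TATAAA in 12.4% and CACGTG in 6.02%, each motif counted separately. These windows were not trimmed at exons as the printed runs were, and the upstream Csad run has 142 bases, so the shares are no like-for-like comparison. A match describes the letters and is not evidence that a factor bound there.

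Cdo1, the cysteine dioxygenase that makes the substrate of Csad, differed from CTRL by less than Csad did. It had 905, 936, 927 and 934 CPM in CTRL, 753, 781, 784 and 690 CPM in C1, 727, 733, 498 and 555 CPM in C2, and 915, 870, 866 and 613 CPM in C3. All C1 and C2 libraries lay below all CTRL libraries, while C3 overlapped CTRL, with C3-4 far below its pool-mates. The log2 fold change against CTRL was -0.30 ± 0.15 in C1, -0.56 ± 0.15 in C2 and -0.18 ± 0.15 in C3, with a call, lower, in C2. Without the 3 libraries rich in nuclear RNA the C2 value was -0.33, still called, and the C3 value was -0.07. The C2 value was not called when either C2-3 or C2-4, or CTRL-2, was left out alone or when CTRL and C2 were fitted by themselves.

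Reads of Csad counted per 100 reads of Cdo1 within each library, a ratio that no scaling between libraries can move, again put C1 lowest. The ratio was 8.32, 8.52, 8.06 and 8.31 in CTRL and 3.35, 3.30, 3.51 and 3.34 for C1. It was 6.29, 6.10, 7.71 and 7.34 for C2 and 5.46, 5.66, 6.11 and 6.50 for C3. Every treated library lay below every CTRL library, and the C1 libraries lay below those of C2 and C3. Both C2 libraries rich in nuclear RNA had higher ratios than the other 2 of that pool.

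**Figure D1:**
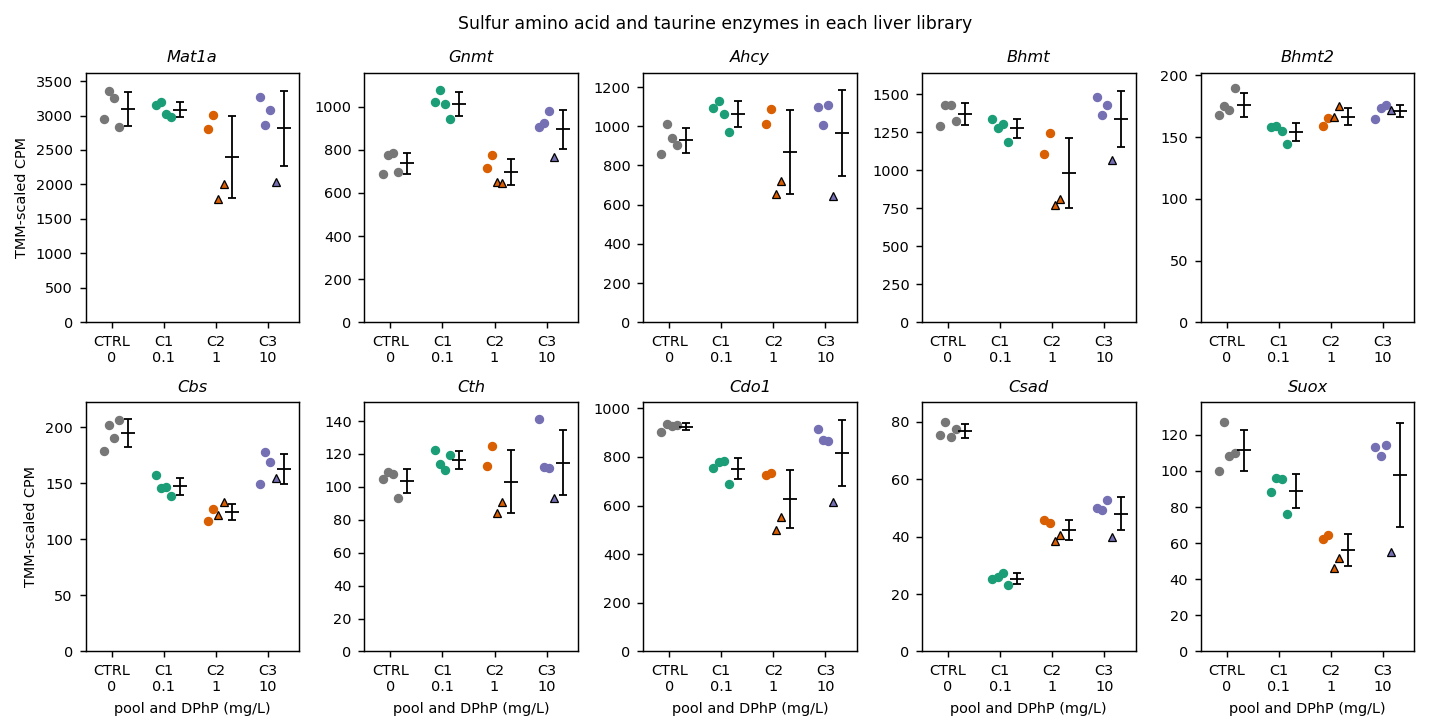
TMM-scaled CPM (vertical axes, from 0) of the 10 genes in each library, by pool and DPhP concentration in mg/L; points are libraries, triangles are C2-3, C2-4 and C3-4, and the bars give mean ± SD of 4 libraries. Csad stands lowest in C1 (23.0 to 27.5 CPM, against 74.7 to 79.8 CPM in CTRL), and for most other genes the triangles lie below the circles of their own pool.

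Suox, the sulfite oxidase of mitochondria that turns sulfite into sulfate, had its lowest levels in C2. It had 99.9, 127, 108 and 110 CPM in CTRL, 88.2, 96.3, 95.4 and 76.0 CPM in C1, 62.5, 64.6, 46.1 and 51.8 CPM in C2, and 114, 108, 114 and 54.9 CPM in C3. C1 and C2 lay wholly below CTRL, 3 of the C3 libraries lay within the CTRL range, and C3-4 lay among those of C2. The log2 fold change against CTRL was -0.98 ± 0.19 in C2, with a call, lower, and a value of -0.80 without the 3 libraries rich in nuclear RNA. It was -0.32 ± 0.19 in C1 and -0.19 ± 0.19 in C3, neither called, and in C3 it was 0.0032 without those libraries. Suox was higher in C3 than in C2 by 0.80 ± 0.19 (edgeR adjusted p = 0.0441), although C3-4 overlapped C2. That call was lost under 10 of 18 alternative settings, and the value without the 3 libraries was 0.80. Whether C2 and C3 values played a part in the choice of the genes is not recorded, so this p-value only describes the values.

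Cbs, the cystathionine beta-synthase that condenses homocysteine with serine, was lower in every treated library than in any CTRL library. It had 179, 202, 190 and 207 CPM in CTRL, 158, 146, 147 and 139 CPM in C1, 116, 127, 122 and 133 CPM in C2, and 149, 178, 169 and 155 CPM in C3. The lowest pool was C2, where the libraries rich in nuclear RNA lay in the same range as the other 2. The log2 fold change was -0.40 ± 0.10 in C1, -0.64 ± 0.10 in C2 and -0.26 ± 0.10 in C3, with calls, lower, in C1 and C2. The C1 call was lost under 11 of the 18 alternatives, among which was the omission of any 1 of the 8 C1 and CTRL libraries.

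Cth, the cystathionine gamma-lyase that releases cysteine from cystathionine, did not share the lower level of Cbs. It had 105, 109, 108 and 93.2 CPM in CTRL, 122, 114, 110 and 119 CPM in C1, 113, 125, 84.0 and 90.9 CPM in C2, and 141, 112, 112 and 93.5 CPM in C3. The C1 libraries lay above those of CTRL, and the wide ranges of C2 and C3 overlapped that of CTRL. The log2 fold change was 0.17 ± 0.14 in C1, -0.0050 ± 0.14 in C2 and 0.15 ± 0.14 in C3, none called, or 0.21 in C2 and 0.23 in C3 without the 3 libraries rich in nuclear RNA. Counted per 100 Cbs reads, Cth had 53.4 ± 5.90 reads in CTRL, 79.1 ± 4.59 reads in C1, 83.1 ± 16.8 reads in C2 and 71.0 ± 15.98 reads in C3. Every treated library, the lowest at 60.3, lay above the highest CTRL library at 58.4.

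Of the methionine cycle, Gnmt was the member with the largest positive difference. Gnmt is the glycine N-methyltransferase, an abundant liver enzyme that spends surplus S-adenosylmethionine on glycine. It had 690, 778, 784 and 698 CPM in CTRL, 1022, 1079, 1013 and 942 CPM in C1, 718, 775, 652 and 649 CPM in C2, and 907, 925, 981 and 769 CPM in C3. C1 lay wholly above CTRL, C3 lay above it in 3 of 4 libraries, and C2 overlapped it. The log2 fold change of 0.46 ± 0.13 in C1 was not called, and it was called under 7 of the 18 alternatives. It was -0.08 ± 0.12 in C2 and 0.28 ± 0.12 in C3, and without the 3 libraries rich in nuclear RNA it was 0.03 in C2 and 0.34, then called, in C3. Gnmt was called lower in C2 than in C1 (log2 fold change -0.54 ± 0.13), a call that was lost under 9 of the 18 alternatives.

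Mat1a, the liver form of methionine adenosyltransferase, ranged from 2837 to 3357 CPM in CTRL, 2972 to 3192 CPM in C1, 1785 to 3007 CPM in C2 and 2028 to 3272 CPM in C3. All ranges overlapped that of CTRL, and the low ends in C2 and C3 were the libraries rich in nuclear RNA. Its log2 fold change was -0.0062 ± 0.18 in C1, -0.37 ± 0.18 in C2 and -0.14 ± 0.18 in C3, or -0.08 in C2 and -0.02 in C3 without those libraries. Counted per 100 Mat1a reads, Gnmt had 23.8 ± 0.632 reads in CTRL, 32.8 ± 0.957 reads in C1, 30.0 ± 5.32 reads in C2 and 32.4 ± 4.20 reads in C3. Every treated library, the lowest at 25.6, lay above the highest CTRL library at 24.6. The 2 C2 libraries with the smaller nuclear RNA index, at 25.6 and 25.8, were close to CTRL.

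Ahcy, which splits S-adenosylhomocysteine to homocysteine and adenosine, ranged from 858 to 1013 CPM in CTRL, 969 to 1129 CPM in C1, 654 to 1088 CPM in C2 and 642 to 1108 CPM in C3. All ranges overlapped that of CTRL, and the log2 fold changes of 0.20 ± 0.19, -0.10 ± 0.19 and 0.05 ± 0.19 in C1, C2 and C3 were not called. Those of C2 and C3 were 0.19 and 0.20 without the 3 libraries rich in nuclear RNA. Bhmt and Bhmt2 are neighbours on the minus strand of chromosome 13, 17758 bases apart, and encode betaine- and S-methylmethionine-dependent homocysteine methyltransferases. Bhmt ranged from 1289 to 1432 CPM in CTRL, 1185 to 1336 CPM in C1, 771 to 1246 CPM in C2 and 1068 to 1485 CPM in C3. It was called lower in C2 at -0.48 ± 0.16, a call lost under 12 of the 18 alternatives, and at -0.20 without the 3 libraries rich in nuclear RNA it was not called. Bhmt2 ranged from 168 to 190 CPM in CTRL, 144 to 159 CPM in C1, 159 to 176 CPM in C2 and 165 to 176 CPM in C3. Its log2 fold changes were -0.19 ± 0.10 in C1, -0.08 ± 0.10 in C2 and -0.04 ± 0.10 in C3, none called, although C1 lay wholly below CTRL.

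**Figure D2:**
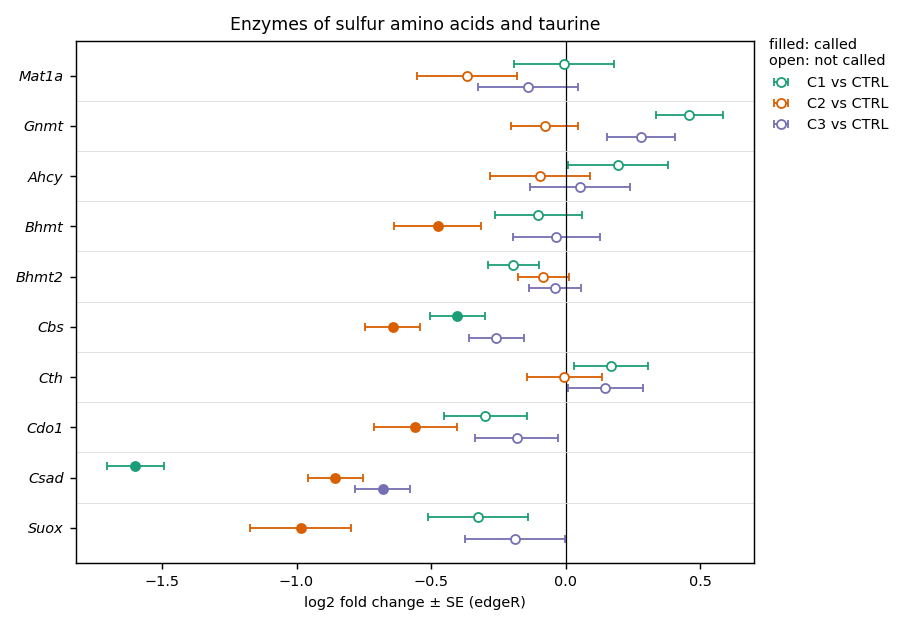
Log2 fold change against CTRL ± SE from edgeR (horizontal axis) for each gene in C1, C2 and C3; filled points were called at an adjusted p under 0.05 over all genes tested. Csad in C1 (-1.60) stands apart from all other points, Csad has filled points for all 3 pools, and Gnmt has the largest positive value (0.46 in C1, not called).

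Counted by comparison, edgeR called 2 of the 10 genes in C1 (Csad and Cbs, both lower), against 2.32% of all genes tested in either direction, 1.39% called lower and 0.938% called higher. In C2 it called 5 of 10 (Csad, Cbs, Cdo1, Suox and Bhmt, all lower), against 18.3% of all genes, 10.2% called lower and 8.03% called higher. These C2 calls were 1824 lower and 1430 higher, and with upper-quartile scaling they were 1395 lower and 1969 higher. In C3 it called 1 of 10 (Csad, lower), against 1.4% of all genes, 0.876% called lower and 0.522% called higher. Nothing is read from these shares, because the genes were chosen with the C1 result known and the comparisons share the CTRL libraries. The median log2 fold change of the 10 genes was -0.15 in C1, -0.42 in C2 and -0.09 in C3. That of all genes tested was 0.01, 0.03 and 0.00. The libraries of a pool did not overlap those of CTRL for 7 members in C1 (5 lower, 2 higher), 5 in C2 and 2 in C3, with 18.2%, 20.7% and 12.8% of all genes in the same state. Without the 3 libraries rich in nuclear RNA, 6 members were called in C1 (Cdo1, Suox and Bhmt2, lower, and Gnmt, higher, besides Csad and Cbs), 4 in C2 (all but Bhmt) and 2 in C3 (Csad, lower, and Gnmt, higher), while the calls over all genes numbered 2688, 5177 and 1125, against 414, 3254 and 249 with all libraries.

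Between treated pools, 2 members were called in C2 against C1 (Csad higher and Gnmt lower), with 2.06% of all genes called (0.477% higher and 1.58% lower). In C3 against C1 the 1 member called was Csad, higher, with 0.87% of all genes called (0.354% higher and 0.517% lower). In C3 against C2 the 1 member called was Suox, higher, with 1.44% of all genes called (1.17% higher and 0.27% lower). The medians of the 10 genes were -0.28 in C2 against C1, 0.09 in C3 against C1 and 0.29 in C3 against C2, with 0.02, 0.01 and -0.01 over all genes tested. Libraries did not overlap for 4, 2 and 1 members in these 3 comparisons, against 9.56%, 7.96% and 5.62% of all genes.

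**Figure D3:**
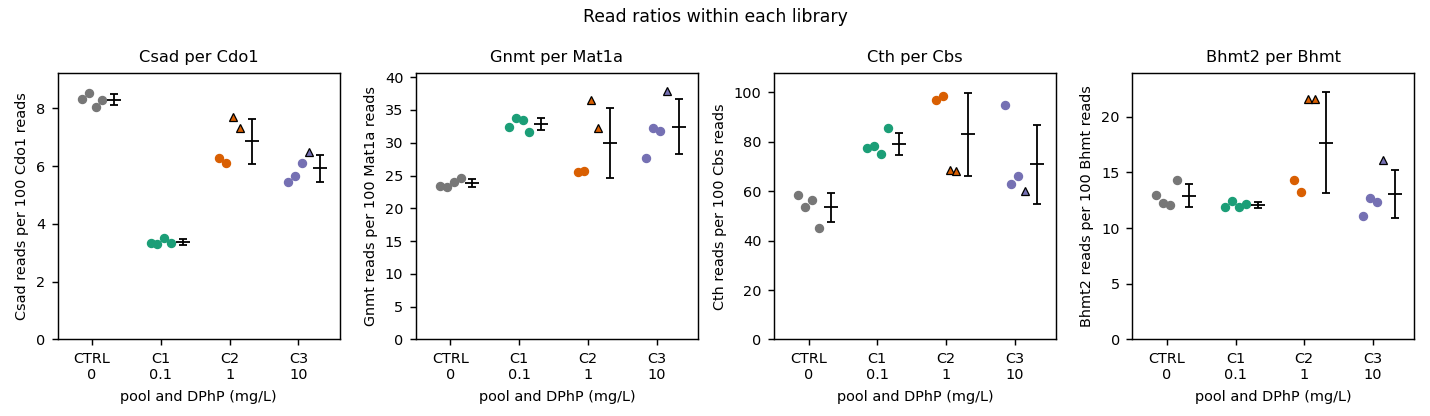
Reads of 1 enzyme per 100 reads of another in the same library (vertical axes, from 0) by pool and DPhP concentration in mg/L; points are libraries, triangles are C2-3, C2-4 and C3-4, and bars give mean ± SD of 4 libraries. Csad per Cdo1 is below the CTRL range in every treated library, and Gnmt per Mat1a and Cth per Cbs are above it in every treated library; Bhmt2 per Bhmt overlaps CTRL in all 3 treated pools.

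Levels of different genes can be compared only per length, and on the TPM scale, which divides reads by the summed exon length of each gene, the order in CTRL was Mat1a at 1373 ± 120, Gnmt at 939 ± 74.8, Cdo1 at 865 ± 40.4, Ahcy at 509 ± 46.4, Bhmt at 365 ± 25.4, Bhmt2 at 110 ± 9.33, Suox at 68.6 ± 8.67, Cth at 56.9 ± 3.54, Cbs at 40.0 ± 3.81 and Csad at 30.8 ± 1.79 TPM. Neighbours in this order overlapped between Gnmt and Cdo1 and between Suox and Cth, and the other neighbours did not. The order depends on the length used, which counts every annotated exon: 7485 bases for Cbs and 2791 bases for Cth. In CPM, Cbs averaged 195 and Cth 104 in CTRL. Csad was the lowest of the 10 in CTRL, and in C1 its level was 9.30 ± 1.07 TPM.

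The 3 libraries rich in nuclear RNA held less of most of these transcripts than the other libraries of their own pools. The mean CPM of the 2 such libraries of C2, as a percentage of the mean of the other 2, was 65.3 for Mat1a, 65.3 for Ahcy, 67.3 for Bhmt, 72.1 for Cdo1, 73.6 for Cth and 77.0 for Suox. C3-4 stood at 65.9% of its pool-mates for Mat1a, 60.0% for Ahcy, 74.8% for Bhmt, 69.4% for Cdo1, 76.8% for Cth and 49.0% for Suox. Csad (87.5% in C2 and 78.6% in C3) and Gnmt (87.1% and 82.1%) were lower by less, whereas Cbs (105% and 93.8%) and Bhmt2 (106% and 100%) lay closer to their pool-mates. The hepatocyte marker sum reached its lowest values in C2 and C3, and 4 of the 9 hepatocyte markers tested and 4 of 8 periportal markers were called lower in C2. In the same comparison 5 of 7 markers of sinusoidal endothelial cells and 3 of the 4 nuclear-retained RNAs were called higher. Of all genes, 10.2% were called lower and 8.03% higher in C2. Of 8 pericentral markers, 1 was called higher and 1 lower in C2, with sums of 2777 to 5291 CPM, against 4122 to 4878 CPM in CTRL, and 1 was called higher in C1. Of 6 markers of intestinal epithelium, 4 were called higher in C1, 5 lower in C2 and 5 lower in C3; their summed level ranged from 51.0 to 72.6 CPM in CTRL, 62.2 to 77.3 CPM in C1, 33.3 to 77.2 CPM in C2 and 29.7 to 53.6 CPM in C3. Of 5 erythroid markers, 3 were called lower in C2 and 2 in C3, with sums of 2114 to 2763 CPM for CTRL, 1502 to 1955 CPM for C1, 701 to 1784 CPM for C2 and 1091 to 1642 CPM for C3. Of 7 markers of Kupffer cells and macrophages, 2 were called lower in C2, and of the hepatocyte markers 1 was called lower in C1. Cholangiocyte markers had 1 called higher in C1 and 1 in C2, and stellate cell markers 1 higher in C2. B and plasma cell markers had 1 called higher in C1, and 2 higher and 1 lower in C2. Of 2 exocrine pancreas markers tested, 1 was called lower in C2 and 1 in C3, and no T and NK cell marker was called. Over all genes, 1.39% were called lower and 0.938% higher in C1, and 0.876% lower and 0.522% higher in C3. No marker of these lists was at 0 in all libraries. The part of these differences in the enzymes' values was not tested.

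**Figure D4:**
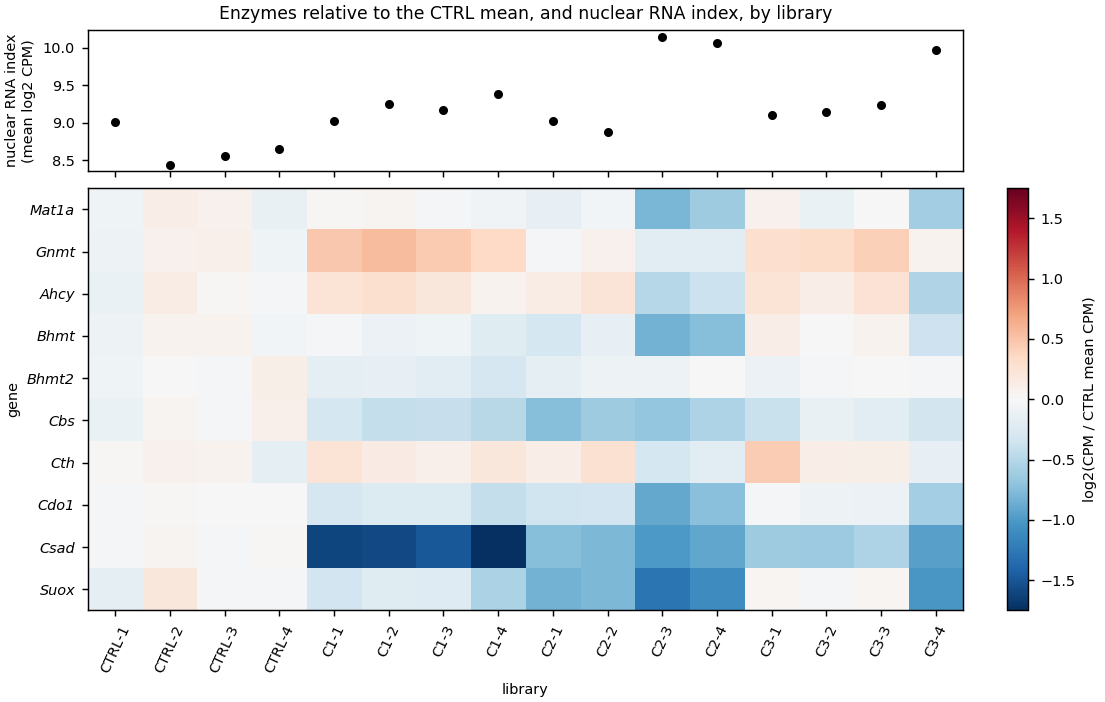
The lower panel shows log2 of each gene's CPM over its CTRL mean in all 16 libraries, blue for below and red for above, and the upper panel the nuclear RNA index (mean log2 CPM of 4 nuclear-retained RNAs). C2-3, C2-4 and C3-4 have an index of at least 9.97 and blue columns in most rows. The darkest cells are those of Csad in C1, where the index runs from 9.02 to 9.39, above the 8.44 to 9.01 of CTRL.

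Across the 16 libraries, which differ in pool and in nuclear RNA together, Pearson correlations of log2 CPM between members are a description only. They were 0.947 between Cdo1 and Suox, 0.936 between Cdo1 and Bhmt and 0.920 between Mat1a and Bhmt, and lowest between Csad and Gnmt at -0.556. Csad had its highest correlations among members with Bhmt2 (0.771) and Cbs (0.624), followed by Cdo1 (0.532). Among 10617 protein-coding genes that averaged 2 CPM or more, those with the pattern most like Csad were Prok1 (0.964), Rcan1 (0.924), Bmf (0.921), Adgrl2 (0.904) and Slc38a2 (0.902). Prok1, which encodes a secreted prokineticin, averaged 18.9 CPM in CTRL, 3.95 CPM in C1, 7.39 CPM in C2 and 11.6 CPM in C3, and Rcan1, an inhibitor of calcineurin, averaged 31.1, 17.5, 19.8 and 24.2 CPM in the same pools. Those most like Cdo1 were Adipor2 (0.980), Ptges2 (0.976), F2 (0.974), Arsb (0.973) and Zdhhc5 (0.972). The thrombin precursor gene F2 averaged 1173 CPM in CTRL, 892 CPM in C1, 695 CPM in C2 and 959 CPM in C3. The 2 sets had no gene in common.

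Of the neighbouring steps of sulfur metabolism, a list of 70 genes was followed, of which 68 were tested. The list was drawn up with earlier results of these data known. The genes given with a p-value below were taken from those called against CTRL, by size of change. Their p-values therefore describe the values and are no independent test. edgeR called 6 in C1, all lower, 16 lower and 1 higher in C2, and 2 lower and 1 higher in C3. This was 8.82%, 25% and 4.41% of the list, against 2.32%, 18.3% and 1.4% of all genes tested. Of all genes, 1.39%, 10.2% and 0.876% were called lower in C1, C2 and C3. The list medians were -0.09, -0.20 and -0.13. Between treated pools, 2 were called lower in C2 than in C1 (Ggt1 and Aldh7a1), 1 higher and 1 lower in C3 than in C1 (Slc38a2 and Ggt1), and 3 higher in C3 than in C2 (Got1, Chac1 and Aldh7a1). Of the last 3 calls, that of Aldh7a1 was lost under 12 of the 18 alternatives, and those of Got1 and Chac1 were lost when C3 and C2 were fitted alone. The C3 against C1 call of Slc38a2 was lost with no filter and without C1-1, and the C2 against C1 call of Aldh7a1 was lost with those pools alone and without C1-3. The calls in C2 against C1, C3 against C1 and C3 against C2 were 2.94%, 2.94% and 4.41% of the list. The shares of all genes were 2.06%, 0.87% and 1.44%. Without the 3 libraries rich in nuclear RNA the counts against CTRL were 17 in C1, 26 in C2 and 13 in C3, with 2688, 5177 and 1125 over all genes.

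For the supply of amino acids and glutathione turnover (13 genes tested), Slc38a2, a sodium-coupled transporter of small neutral amino acids, had 376, 325, 336 and 315 CPM in CTRL, 160, 170, 161 and 161 CPM in C1, 189, 186, 230 and 204 CPM in C2, and 225, 243, 239 and 279 CPM in C3. As with Csad, the lowest pool was C1, no treated library reached the CTRL range, and the level was higher in C3 than in C1. It fell in C1 (-1.05 ± 0.12 on the log2 scale, edgeR adjusted p = 7.23e-05) and in C2 (-0.74 ± 0.11, edgeR adjusted p = 0.000398). Its value of -0.46 ± 0.11 in C3 missed the threshold (edgeR adjusted p = 0.0575), and it was higher in C3 than in C1 by 0.59 ± 0.11 (edgeR adjusted p = 0.0125). Chac1, an enzyme that degrades glutathione and a target of the amino acid response, averaged 2.72 ± 0.528 CPM in CTRL, 0.938 ± 0.145 CPM in C1 and 0.499 ± 0.314 CPM in C2. It fell in C1 (-1.51 ± 0.30 on the log2 scale, edgeR adjusted p = 0.0124) and in C2 (-2.60 ± 0.33, edgeR adjusted p = 7.06e-05), was not called in C3 at -0.63 ± 0.28, and was higher in C3 than in C2 by 1.98 ± 0.34 (edgeR adjusted p = 0.00649). Gclc and Gss, which make glutathione, were not called in any comparison with CTRL. Ggt1, which breaks glutathione down outside the cell and was picked out after its values were seen, had at most 1.49 CPM in any library and was called lower in C2 and in C3 than in C1.

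For sulfide, thiosulfate and sulfate handling (14 tested), 1 gene was called lower in C1, 4 in C2 and none in C3, where 4 had an unadjusted p under 0.05 and DESeq2 called genes that included Got1 and Got2. Over all genes, edgeR called 2.32% in C1, 18.3% in C2 and 1.4% in C3. Got1 and Got2, the cytosolic and mitochondrial aspartate aminotransferases, which also transaminate cysteine sulfinate on the branch that competes with Csad, were among the genes called in C2. Got1 had 197, 180, 193 and 196 CPM in CTRL, 130, 132, 133 and 116 CPM in C1, 90.3, 92.5, 97.7 and 106 CPM in C2, and 129, 154, 139 and 162 CPM in C3. No treated library reached CTRL, and C2 was the lowest pool. Got1 fell in C1 (-0.58 ± 0.11 on the log2 scale, edgeR adjusted p = 0.00629) and in C2 (-0.99 ± 0.11, edgeR adjusted p = 1.68e-05), and was -0.39 ± 0.11 in C3 (edgeR adjusted p = 0.0758). Got2 fell in C2 (-1.0 ± 0.16, edgeR adjusted p = 0.000463), and so did Slc26a1, a sulfate anion transporter (-0.72 ± 0.15, edgeR adjusted p = 0.00297). Sqor and Mpst, of sulfide oxidation and mercaptopyruvate breakdown, were not called against CTRL.

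For taurine by other routes, its uptake and its use (12 tested), 2 genes were called lower in C1, 3 in C2 and 2 in C3. The shares of all genes called were 2.32%, 18.3% and 1.4%. Libraries lay wholly below those of CTRL for 6 of the 12 genes in C1, 3 in C2 and 2 in C3. Of all genes, 18.2%, 20.7% and 12.8% did not overlap CTRL in either direction. Vnn1 and Vnn3 encode pantetheinases, which release cysteamine, a taurine precursor. Vnn1, whose fall was among the results known beforehand, averaged 30.7 ± 4.48 CPM in CTRL, 7.18 ± 0.930 CPM in C1, 9.77 ± 3.89 CPM in C2 and 6.31 ± 1.80 CPM in C3. Vnn3 had 34.4, 40.8, 37.1 and 35.1 CPM in CTRL, 18.0, 17.2, 19.0 and 15.9 CPM in C1, 20.0, 22.4, 15.0 and 15.9 CPM in C2, and 22.7, 23.9, 20.9 and 12.7 CPM in C3. It fell in C1 (-1.07 ± 0.17 on the log2 scale, edgeR adjusted p = 0.00167), in C2 (-1.0 ± 0.16, edgeR adjusted p = 0.000646) and in C3 (-0.88 ± 0.16, edgeR adjusted p = 0.00986), with no treated library in the CTRL range. Slc6a13, a transporter of GABA and taurine, fell in C2 (-0.47 ± 0.11, edgeR adjusted p = 0.0101), a call lost when CTRL and C2 were fitted alone. Ado, which oxidizes cysteamine, Fmo1, which turns hypotaurine into taurine, the taurine transporter gene Slc6a6, and Baat and Slc27a5, which conjugate bile acids, were not called in any comparison with CTRL.

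For the methionine cycle, one-carbon and methyl transfer (19 tested), no gene was called in C1 or C3, where 3 and 4 had an unadjusted p under 0.05 and DESeq2 called Chdh in both, and 5 were called lower in C2. Of all genes, edgeR called 2.32% in C1, 1.4% in C3 and 18.3% in C2. Nnmt, of this list and picked out after its values were seen, averaged 51.8 ± 4.02 CPM in C1, against 26.6 ± 3.15 CPM in CTRL. All its C1 libraries lay above those of CTRL, but the difference missed the threshold (0.96 ± 0.27 on the log2 scale, edgeR adjusted p = 0.0765). In C2 and C3 Nnmt overlapped CTRL. Aldh7a1, which oxidizes betaine aldehyde to betaine, averaged 78.2 ± 6.53 CPM in C2, against 147 ± 18.3 CPM in CTRL (-0.92 ± 0.13, edgeR adjusted p = 0.000148). Chdh, the choline dehydrogenase that feeds it, fell in C2 (-0.72 ± 0.11, edgeR adjusted p = 0.000443), as did Gamt, which makes creatine with a methyl group from S-adenosylmethionine (-0.65 ± 0.15, edgeR adjusted p = 0.0058). Mat2a, the methionine adenosyltransferase gene of most other tissues, and Dmgdh, next to Bhmt2, were not called against CTRL.

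For methionine salvage and polyamines (10 tested), 1 gene was called in C1, 3 in C2 and 1 in C3, against 2.32%, 18.3% and 1.4% of all genes. Odc1, the ornithine decarboxylase that starts polyamine synthesis, fell in C1 (-0.46 ± 0.11, edgeR adjusted p = 0.0416) and in C2 (-0.58 ± 0.11, edgeR adjusted p = 0.00248). The C1 call of Odc1 was lost when any 1 of the 8 C1 and CTRL libraries was left out. Sat1, which acetylates polyamines for export or breakdown, was the 1 gene of the 68 called higher than CTRL: it rose by 0.39 ± 0.09 on the log2 scale in C2 (edgeR adjusted p = 0.0093) and by 0.42 ± 0.09 in C3 (edgeR adjusted p = 0.0288), and stood above every CTRL library in all 12 treated libraries. Its C2 call was lost with no filter. Its C3 call was lost with no filter and when any 1 of the 8 C3 and CTRL libraries was left out. Adi1, of the salvage pathway, fell in C2 (-0.54 ± 0.13, edgeR adjusted p = 0.00863), a call lost when CTRL and C2 were fitted alone.

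**Figure D5:**
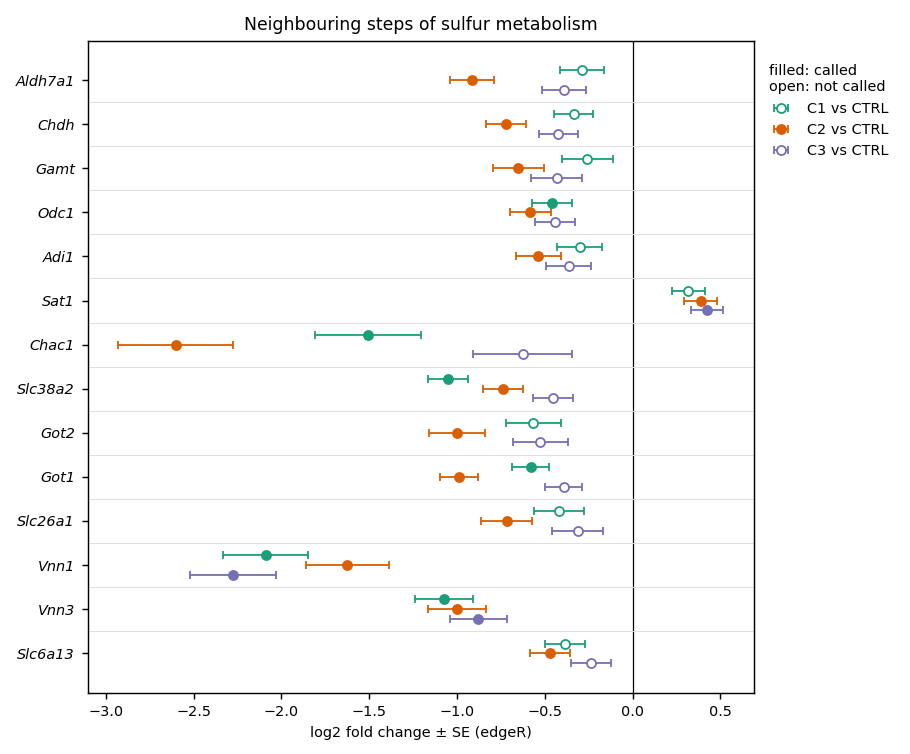
Log2 fold change against CTRL ± SE from edgeR (horizontal axis) for 14 genes of neighbouring steps in C1, C2 and C3; filled points were called at an adjusted p under 0.05 over all genes tested. Vnn1 and Vnn3 have filled points below 0 for all 3 pools, and Slc38a2, Chac1, Got1 and Odc1 for C1 and C2. Sat1 is the 1 gene above 0 among these 14, which were taken from the genes called.

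Some reads could belong to overlapping genes or copies, since how the authors assigned such reads is not given. Zfp740, which overlaps Csad on the opposite strand, had 101 reads per 100 Csad reads in C1 and 31.2 in CTRL; its own log2 fold change was 0.10 ± 0.23 in C1 and was not called. Gm43314, annotated within Cth on the same strand, was called lower in C1 (-0.84 ± 0.18), where Cth was not lower. Gm15622, antisense to Bhmt, and Bhmt-ps1, a processed pseudogene on chromosome 4, were called lower in C2 (-0.87 ± 0.11 and -1.12 ± 0.18), as was Bhmt. Values of Csad, Cth and Bhmt are uncertain to that extent.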

How the data were processed

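Poly(A) RNA of pooled mouse livers was sequenced in 16 libraries, 4 for each of 4 groups. The authors deposited raw counts of reads per gene, which had not been normalised. The build GRCm38 and the tools STAR 2.5.2b, FastQC 0.11.5 and bcl2fastq 2.19.1.403 are named in the submitters' processing notes. The sources used here do not give the program that counted reads, its strand setting or its annotation. The kit preserves strand, per the labels' protocols.

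Of 32916 genes with a count, filterByExpr kept 17810. Scaling was by TMM, and the test was the robust quasi-likelihood test of edgeR 4.0.16 (R 4.3.3) in 1 model of group over all 16 libraries, with 12 residual degrees of freedom and Benjamini-Hochberg adjustment over all genes tested. TPM used the summed exon length of GENCODE M21, which held 53267 of 53372 identifiers. Between libraries of 1 group, chi-square per degree of freedom ran from 5.45 to 710 over 24 pairs, above counting noise, and no library was taken for a copy of another.

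Alternatives were DESeq2 size factors, upper-quartile scaling, no filter, a minimum of 5 CPM in 4 libraries, limma-voom (limma 3.58.1), DESeq2 1.42.0, the 2 groups of a comparison alone, protein-coding genes only, a replicate block and each library left out. Leaving out C2-3, C2-4 and C3-4 together was added after seeing the data.

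The members, the lists and the tests were chosen with earlier results of these data known. Besides the members, up to 3 called genes of each neighbouring list with the largest change, and the 5 genes most correlated with Csad and with Cdo1, were named by rule. Of the 70 neighbouring genes, Gad1 and Slc7a11 did not pass the filter.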

Additional observations from a re-analysis of the deposited data

Results flagged for a closer look

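Within groups of 4 libraries, 1 library stood farther from the other 3 than Dixon's criterion allows at the 95% level in 5 of 96 gene and group pairs examined. Chance alone flags about 1 in 20 pairs that are independent. Genes of 1 library can move together, and most of the flags fell in C3-4 and CTRL-4, so nothing is read from this number. Library C3-4, which is rich in nuclear RNA, was low for Cdo1 at 613 CPM, with the other C3 libraries between 866 and 915 CPM. It was also low for Suox at 54.9 CPM, with the others between 108 and 114 CPM. Library CTRL-4 was high for Chdh at 142 CPM, with the others between 118 and 121 CPM, and for Gamt at 138 CPM, with the others between 103 and 108 CPM. Without a flag, CTRL-4 was also the highest CTRL library for Aldh7a1, Odc1, Adi1, Got2 and Slc26a1. It was the lowest for Sat1, Slc38a2 and Vnn1. Library C1-2 was high for Slc38a2 at 170.0 CPM, with the others between 160.0 and 161 CPM. The values of Cdo1 and Suox in C3 are given in the text with and without C3-4 and the other libraries rich in nuclear RNA.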

How the results depend on the processing

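Counts of calls moved with the settings, and the cause was not tested. Members called in C1 against CTRL (2 with all libraries) numbered 1 with no filter, 4 with DESeq2, 5 with the 2 groups alone, and 6 without the 3 libraries rich in nuclear RNA; the replicate block gave 1. The numbers in the labels do not pair the libraries: correlations between same-numbered deviations ran from -0.299 to 0.51, and 5 of 16 libraries correlated best with their own number. Members in C2 numbered 3 with the 2 groups alone. In C3 they numbered 2 with DESeq2 and 2 without the 3 libraries. In C2 against C1 they numbered 1 with no filter and 1 with the 2 groups alone. In C3 against C1 they numbered 2 without the 3 libraries, and in C3 against C2 they numbered 0 with DESeq2 size factors, upper-quartile scaling, limma-voom or the 2 groups alone, and 3 with DESeq2 or without the 3 libraries. The 0 under edgeR with other scalings concerned Suox, and 5 members had an unadjusted p under 0.05 in the fit reported.

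Neighbouring genes called in C1 numbered 11 with DESeq2, 17 with the 2 groups alone and 17 without the 3 libraries. In C2 they numbered 26 without the 3 libraries. In C3 they numbered 5 at 5 CPM, 12 with DESeq2 and 13 without the 3 libraries. In C2 against C1 they numbered 1 at 5 CPM, 8 with DESeq2, 0 with the 2 groups alone and 19 without the 3 libraries. In C3 against C1 they numbered 1 with no filter, at 5 CPM or with the 2 groups alone and 6 without the 3 libraries, and in C3 against C2 1 at 5 CPM, 0 with the 2 groups alone and 15 without the 3 libraries.

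With 1 library left out, members called ranged from 1 to 1 in C1, 3 to 5 in C2, 1 to 1 in C3, 1 to 2 in C2 against C1, 1 to 1 in C3 against C1 and 0 to 1 in C3 against C2. Neighbours ranged from 5 to 5, 14 to 19, 2 to 3, 1 to 3, 0 to 2 and 2 to 4 in the same order, and all genes from 159 to 294, 1972 to 4492, 97 to 210, 176 to 430, 81 to 146 and 70 to 442. Over all genes, DESeq2 called 924 in C1, 768 in C3, 762 in C2 against C1, 289 in C3 against C1 and 614 in C3 against C2. The 2 groups alone gave 2557 in C1, 1492 in C2, 93 in C2 against C1 and 14 in C3 against C2. In C3 against C2, no filter gave 167 and protein-coding genes 144, and at 5 CPM C3 against C1 gave 91. Without the 3 libraries, C2 against C1 gave 3459, C3 against C1 630 and C3 against C2 2645. Upper-quartile scaling moved the median of all genes in C2 to 0.10.

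Log2 fold changes near 0, none called, changed sign. Cth in C2 was 0.010 with DESeq2 size factors, 0.068 with upper quartile, 0.070 at 5 CPM, 0.011 with DESeq2, 0.028 with the 2 groups alone, 0.032 with protein-coding genes and 0.21 without the 3 libraries, and -0.11 to 0.10 with 1 library left out. Mat1a in C1 was 0.034 with upper quartile, 0.025 at 5 CPM and 0.0073 with protein-coding genes, and -0.048 to 0.033 with 1 library left out. At 5 CPM, Gnmt and Bhmt2 in C2 were 0.0028 and 0.0037, and Bhmt and Bhmt2 in C3 were 0.0028 and 0.0031. Without the 3 libraries, Gnmt and Ahcy in C2 were 0.03 and 0.19, and Bhmt and Suox in C3 were 0.054 and 0.0032. With 1 library left out, Ahcy ran from -0.23 to 0.042 in C2 and from -0.018 to 0.21 in C3, and in C3 Bhmt ran from -0.091 to 0.063 and Suox from -0.27 to 0.012.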
